A study of Canis lupus familiaris with 8 samples.

Results

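The genes described here encode the enzymes that make and break down prostaglandins and the receptors that sense prostaglandin E2 (PGE2). They are PLA2G4A, PTGS1, PTGS2, PTGES, PTGES2, PTGES3, PTGER2, PTGER4 and HPGD. The members were taken by symbol from the deposited table of read counts, which held all 9 of them among its 37952 genes. The samples were epithelial sheets of the dog kidney line MDCK GII, cultured on a stretchable silicone membrane coated with collagen. A total of 4 control wells received no strain, and 4 stretch wells were held at 18% static strain, equal in both in-plane directions, for 2 hours before lysis. All wells came from this single line without any genetic change named in the labels. The labels call them technical quadruplicates, spread over separate devices, so the p-values below measure only the spread between wells, which may be technical.

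Prostaglandins are short-lived lipid signals that cells make on demand. A phospholipase frees arachidonic acid from membranes, a cyclooxygenase converts it to an unstable intermediate, and terminal synthases turn that intermediate into PGE2 or another prostanoid. PGE2 then acts on receptors of the EP family on the same or neighbouring cells, and is inactivated inside cells by a dehydrogenase. In the kidney, PGE2 is known for its effects on salt and water transport in the tubule. The series title concerns force on E-cadherin and EGFR-ERK signalling. The comparison asks which of these transcripts differed after 2 hours of strain.

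Total counts lay between 27047358 and 32478887 per well. All 14 epithelial marker genes examined passed the filter on low counts, with KRT8 at 2457 CPM in control wells and CDH1 at 617 CPM (CPM, read counts scaled to a common library total with TMM factors). The lowest of the 14, CDH16, had only 1.27 CPM in control wells. That was below the fibroblast marker PDGFRA at 3.07 CPM and the endothelial marker KDR at 1.40 CPM. Of the 18 markers of fibroblasts, endothelium and leukocytes, 8 had 0 counts in every well, as had 15990 of all 37952 genes. COL1A2, COL3A1, DCN and PTPRC were among the 8. The summed level of the 7 fibroblast markers was 1.80 to 4.22 CPM in control wells and 2.92 to 3.88 CPM in stretch wells. The 5 endothelial markers together reached at most 2.37 CPM, and the 6 leukocyte markers at most 1.05 CPM. With bulk RNA, fewer cells expressing a gene and less of its RNA per cell cannot be told apart.

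Expressed per kilobase of exon, which allows genes of different length to be compared, the members fell into an abundant and a scarce set. In control wells PTGES3 stood highest, at 261.8 ± 19.9 CPM per kb (mean ± SD, n = 4 here and below). PTGER2 followed at 69.9 ± 1.67, then PLA2G4A at 47.2 ± 1.99, PTGS2 at 46.4 ± 13.0 and PTGES2 at 21.2 ± 1.82 CPM per kb. PLA2G4A and PTGS2 did not differ beyond their spread in control wells. Far below them, PTGES had 1.12 ± 0.473, PTGER4 0.300 ± 0.0269 and HPGD 0.275 ± 0.114 CPM per kb, and the last 2 did not differ beyond their spread. PTGS1 had 0 counts in all 8 wells. In stretch wells PTGS2 stood at 72.1 ± 10.6 CPM per kb, within its spread of PTGER2 at 71.4 ± 3.04 and above PLA2G4A at 44.8 ± 2.06.

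**Figure D1:**
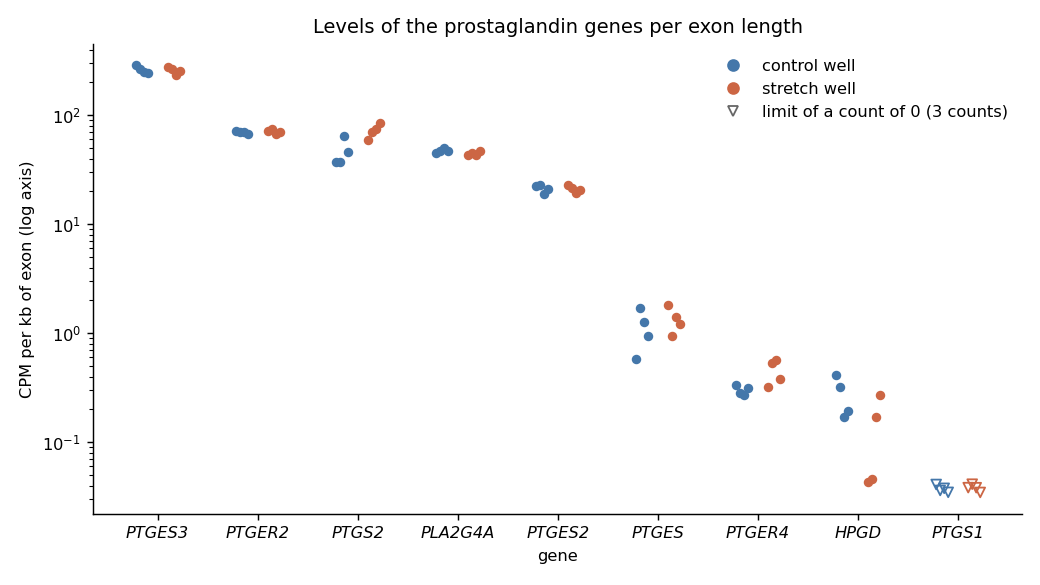
Level of each of the 9 genes in every well, as CPM per kb of exon on a log axis, with control wells on the left and stretch wells on the right of each gene. Open triangles mark the level that 3 counts would give for PTGS1, which had 0 counts in all 8 wells; the 5 abundant genes lie above 18 CPM per kb in every well and the scarce genes below 2.

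PTGS2 encodes the inducible cyclooxygenase, also called COX-2, and PTGS1 the constitutive COX-1. The PTGS2 gene lies on chromosome 7 (19552954 to 19559778, minus strand), and no other gene of the table overlaps it. Control wells had 129, 130.3, 225 and 159 CPM for replicates 1 to 4, and stretch wells had 204, 243, 260.0 and 293 CPM. Control replicate 3 was the only control well above any stretch well, and it exceeded only stretch replicate 1, so the groups overlapped. The mean went from 161 ± 45.0 to 250.1 ± 36.7 CPM. Stretch was higher in 4 of 4 same-numbered pairs, by 1.58-, 1.87-, 1.15- and 1.84-fold for replicates 1 to 4, and 8.45% of all tested genes were likewise higher in 4 of 4 pairs.

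PTGS2 did not pass the test across all genes. Its log2 change was 0.64 ± 0.20 (SE), with an unadjusted p of 0.0144 and an adjusted p of 0.999 (edgeR quasi-likelihood test, Benjamini-Hochberg over 14571 genes). With the replicate number as a block in the model, the log2 change was 0.66 ± 0.15 and the adjusted p was 0.357. The call depended on the fit. DESeq2 with the same block gave 0.66 with an adjusted p of 9.9e-04, and edgeR with the block and without the filter on low counts gave 0.66 with an adjusted p of 5.9e-52. Leaving out both wells numbered 3 gave a log2 change of 0.82 and an adjusted p of 9.4e-12 (edgeR with the block), again on a small SE of 0.044. Leaving out any other pair gave adjusted p-values between 0.522 and 0.649 in the same test. The other adjusted p-values given below for the unfiltered fit with the block, or without pair 3, have the same limit.

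Among the 2378 tested genes with a mean of at least 100 CPM, a level chosen after the values were seen, the log2 change of PTGS2 with the block ranked 4 in size. CCN1, RGS2 and FOS had larger ones, at 0.89, 0.78 and 0.70, and none of these passed in that fit (edgeR with the block, adjusted p = 0.149, 0.688 and 0.262). Their calls also depended on the fit. DESeq2 with the block called CCN1 and FOS (adjusted p = 7.4e-07 and 0.00159) and not RGS2 (0.36), and DESeq2 without it called CCN1 (0.0144). Without the filter, edgeR with the block called all 3 (adjusted p = 3.8e-85, 1.4e-56 and 4.6e-44 for CCN1, RGS2 and FOS). P-values of this size from 4 pairs cannot be taken at face value. PTGS2 was also among the least even of these abundant genes between wells of 1 group. Its coefficient of variation was 28.0% over control wells, rank 14 of 2378, against a median of 4.71% for these genes. Over stretch wells it was 14.7%, rank 75, against a median of 4.80%. PTGER2, at a similar level in CPM, varied by 2.40% over control wells and 4.25% over stretch wells.

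With PTGS1 at 0, PTGS2 gave 100% of the cyclooxygenase counts in each of the 8 wells, so the planned test of this share between groups had nothing to compare. A count of 0 allows up to 3 counts per well. At that limit, and per exon length, PTGS2 was at least 909.9-fold higher than PTGS1 in control replicate 1 and at least 2439-fold higher in stretch replicate 4, the lowest and highest of the 8 bounds. These bounds cover counting error only. PTGS1 lies on chromosome 9 (60289919 to 60311671, minus strand) and overlaps no other gene of the table.

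PLA2G4A, the gene of the cytosolic phospholipase A2 that frees arachidonic acid, is a neighbour of PTGS2 on chromosome 7 (19688892 to 19840168, plus strand), 129.1 kb away with 1 other listed gene between them. Control wells had 171, 180.2, 189 and 178 CPM, and stretch wells 165, 173, 163 and 180.2 CPM for replicates 1 to 4. The stretch wells were lower in 3 of 4 pairs, and the groups overlapped. The means were 180 ± 7.55 and 170.3 ± 7.82 CPM. The log2 change was -0.08 ± 0.05 (edgeR, adjusted p = 0.999 without and 0.676 with the block), so it did not pass.

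The terminal synthases of PGE2 were examined next. PTGES3, which encodes the cytosolic synthase also known as the HSP90 co-chaperone p23, had 210.3 to 247 CPM in control wells and 202 to 239.7 CPM in stretch wells. PTGES2, the gene of a membrane-associated synthase, had 23.3 to 28.3 CPM in control wells and 24.3 to 28.6 CPM in stretch wells. For both genes the ranges of the groups nearly coincided. Their log2 changes were -0.02 ± 0.06 and -0.01 ± 0.08, and neither passed (edgeR, adjusted p = 0.999 for each without the block, 0.946 and 0.995 with it).

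PTGES, the gene of the inducible microsomal synthase that often works together with COX-2, was scarce. Its raw counts were 13, 43, 31 and 25 in control replicates 1 to 4 and 44, 21, 34 and 32 in stretch replicates 1 to 4. The groups overlapped widely and the pairs went both ways, from 3.17-fold in replicate 1 to 0.557-fold in replicate 2. The log2 change of 0.26 ± 0.33 missed the threshold in edgeR (adjusted p = 0.999, or 0.909 with the block). Within the wells, PTGES gave 0.187% to 0.604% of the PGE2 synthase counts per exon length, PTGES2 7.01% to 7.89% and PTGES3 91.7% to 92.6%. The log2 CPM of PTGS2 and PTGES over the 8 wells had a Pearson r of 0.28, given as a description.

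**Figure D2:**
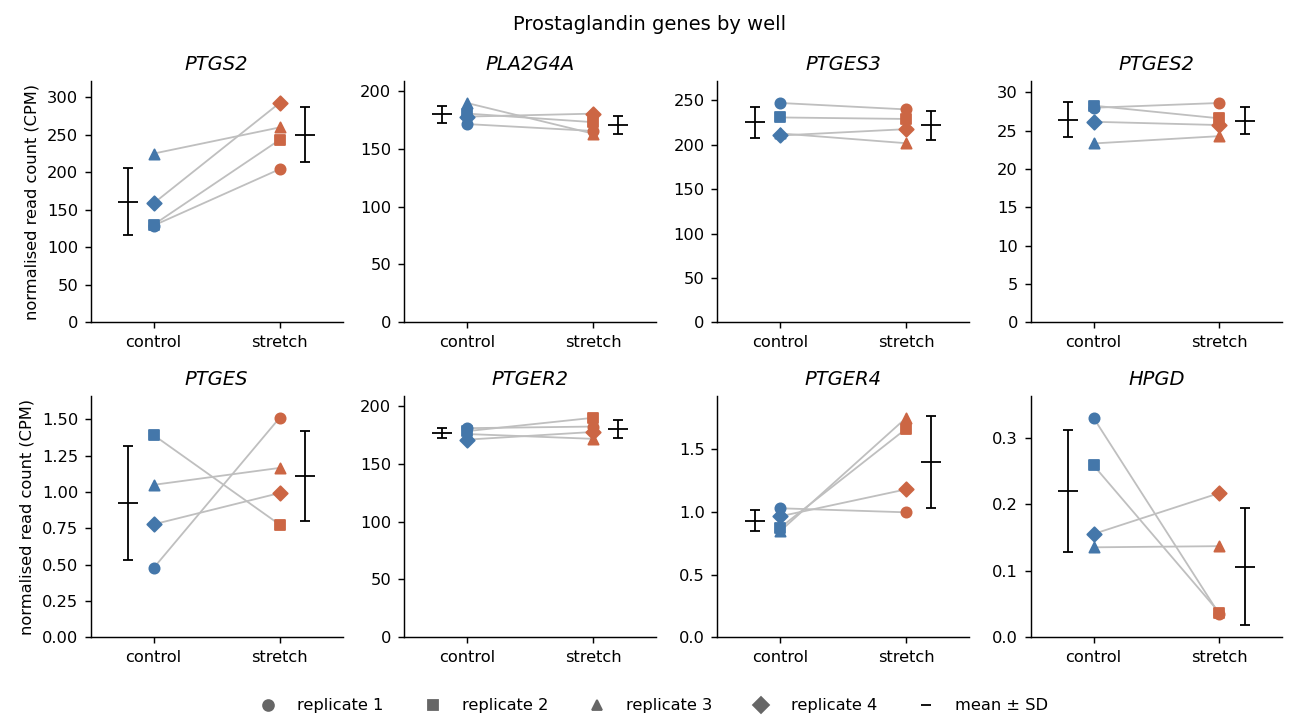
Normalised read count (CPM, linear axes starting at 0) of the 8 detected genes in each well, with grey lines joining wells of the same replicate number and bars giving mean ± SD (n = 4). All 4 PTGS2 lines run upward, from 129 to 225 CPM in control wells to 204 to 293 CPM in stretch wells, while the lines of PLA2G4A, PTGES3, PTGES2 and PTGER2 are nearly level.

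On the receptor side, PTGER2 and PTGER4 encode EP2 and EP4, which both couple to the stimulatory G protein and raise cyclic AMP. PTGER2 on chromosome 8 (28777540 to 28791160, plus strand) was the abundant one. Its control wells had 181, 178, 176 and 171 CPM and its stretch wells 182, 189.8, 172 and 178 CPM for replicates 1 to 4. The groups overlapped, with a log2 change of 0.03 ± 0.05 (edgeR, adjusted p = 0.999, and 0.914 with the block). Per exon length, PTGER2 gave 99.0% to 99.5% of the counts of the 4 EP receptor genes in the 8 wells.

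PTGER4 on chromosome 4 (69581192 to 69594491, minus strand) had only 25 to 51 counts per well. Its control wells had 1.03, 0.874, 0.846 and 0.964 CPM and its stretch wells 0.996, 1.66, 1.75 and 1.18 CPM for replicates 1 to 4. Stretch replicates 2, 3 and 4 lay above every control well, and stretch replicate 1 lay inside the control range. The log2 changes were 0.59 ± 0.25 (no block) and 0.57 ± 0.27 (block), and the gene did not pass (edgeR, adjusted p = 0.999 and 0.569). Its unadjusted p was 0.0364 without the block and 0.0516 with it. At these counts a difference of this size could not be separated from the spread between wells.

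HPGD encodes the dehydrogenase that starts the breakdown of PGE2. It lies on chromosome 25 (25117290 to 25145635, minus strand), and its exons overlap those of 1 gene on the opposite strand, which had 0 counts. HPGD had 9, 8, 4 and 5 counts in control wells and 1, 1, 4 and 7 counts in stretch wells for replicates 1 to 4, which left it below the filter on low counts. Stretch replicates 1 and 2 were the lowest wells, and stretch replicates 3 and 4 lay within the control range. Without the filter its log2 change was -0.98 ± 0.70 (edgeR, adjusted p = 0.945), and no difference was detectable at this depth.

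In sum over the members, 7 of the 9 passed the filter on low counts. None of the 7 had an adjusted p under 0.05 in edgeR without the block, where 0% of all tested genes were called. None had one with the block either, where 0.7% of all tested genes were called. At an unadjusted p under 0.05 there were 2 of 7 without the block (3.97% of all genes) and 1 of 7 with it (8.89% of all genes). DESeq2 without the block called 0 of 7, against 40 of all 14571 tested genes. With the block it called 1, PTGS2, against 145 of 14571. DESeq2 with the block gave PTGES and PTGER4 no adjusted p, so these genes could not be called there. In none of the 7 genes were the groups free of overlap, against 2.55% of all tested genes. The median log2 change of the 7 was 0.03, and that of all tested genes was -0.0032.

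**Figure D3:**
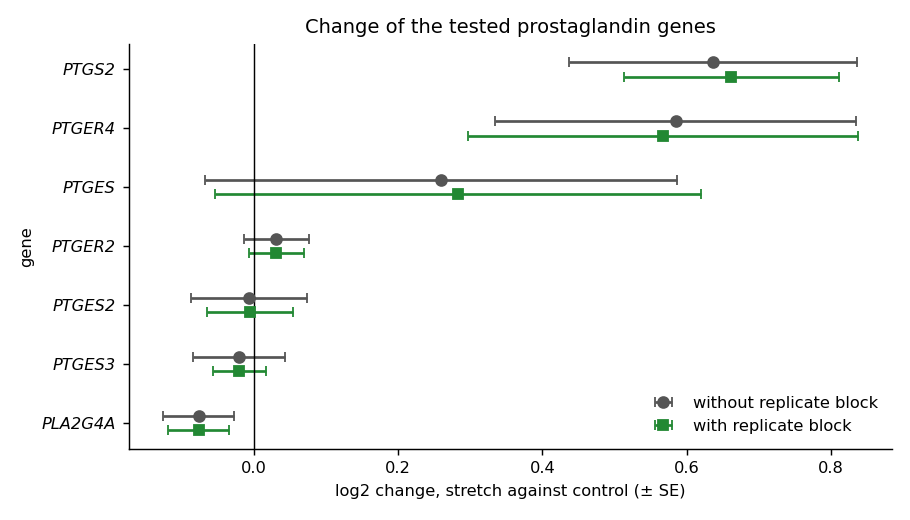
Log2 change of the 7 tested genes, stretch against control, ± SE, from edgeR without the replicate block (circles) and with it (squares). PTGS2 and PTGER4 lie at 0.57 to 0.66, PTGES between them and 0 with a wide error, and the other 4 within 0.08 of 0.

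The genes whose level followed PTGS2 most closely over the 8 wells were INHBA, MAP1LC3A and GPRC5A, among 13134 genes with a mean of at least 1 CPM. Their Pearson r of log2 CPM was 0.959, 0.956 and 0.956, which describes 8 wells that share libraries and carries no test. INHBA, the gene of an activin subunit, had 29.8, 29.8, 55.3 and 33.7 CPM in control wells and 51.0, 62.5, 71.5 and 59.0 CPM in stretch wells. Control replicate 3 stood above the other control wells for INHBA and PTGS2 alike. GPRC5A, the gene of an orphan receptor, had 244, 245, 320.0 and 263 CPM in control wells and 317, 341, 361 and 330.0 CPM in stretch wells, with control replicate 3 again the highest of its group. INHBA and GPRC5A passed with the block, with log2 changes of 0.75 ± 0.11 and 0.34 ± 0.04 (edgeR, adjusted p = 0.0372 and 0.00145), and neither passed without it (adjusted p = 0.999 and 0.567). With only replicates 1 and 2 set apart from 3 and 4, INHBA lost its call and GPRC5A kept it (edgeR, adjusted p = 0.4002 and 0.0270). INHBA also lost it when pair 1 or pair 4 was left out with the block (edgeR, adjusted p = 0.113 and 0.186). Without the block, INHBA and GPRC5A were both called when control replicate 3 was left out (edgeR, adjusted p = 0.0109 for each). For PTGER4 the 3 closest genes were MLF1, SLC5A6 and LOC100684349, with r of 0.984, 0.937 and 0.931, and none of these passed with or without the block at the filter used. Without the filter, edgeR with the block called SLC5A6 (adjusted p = 2.2e-13), and it was also called when pair 3 was left out (0.00256). PTGS2 and PTGER4 had an r of 0.58.

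The wider pathway was read from 134 listed gene symbols. The table held 128 of them, and 87 passed the filter on low counts and were tested. Without the block 0 of the 87 were called, against 0% of all tested genes (edgeR). An unadjusted p under 0.05 was found for 7 of the 87, against 3.97% of all tested genes. DESeq2 without the block called 1, EGR1, against 40 of all 14571 tested genes. With the block edgeR also called EGR1 alone, against 0.7% of all tested genes. In that fit 11 of the 87 had an unadjusted p under 0.05, against 8.89% of all tested genes. The lists were chosen with earlier results of these data known, so these shares are a description only. The median log2 change of the 87 genes was 0.01, with 47 above 0 and 40 below.

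Genes that release, store or handle arachidonic acid were near level. Of 20 tested, 8 had a log2 change above 0 and 12 below, with a median of -0.03 (medians here are without the block), and 0 were called with or without the block (0 at an unadjusted p under 0.05 in either edgeR fit, and 0 by DESeq2). The 3 with the smallest p with the block were PLCB3, a phospholipase C, at 90.6 ± 12.6 and 84.5 ± 8.31 CPM in control and stretch wells; LPCAT3, which puts arachidonate into phospholipids, at 83.1 ± 3.61 and 77.8 ± 7.82 CPM; and PLD1, a phospholipase D, at 149 ± 37.1 and 156 ± 42.9 CPM. MGLL, which frees arachidonate from a monoglyceride in other tissues, and PLCB1 had 0 counts in every well.

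Other terminal synthases were mostly scarce, and 3 of 8 were tested. PTGIS, the prostacyclin synthase gene, had 27.9, 30.5, 26.9 and 33.3 CPM in control wells and 33.3, 33.8, 34.2 and 32.4 CPM in stretch wells. Control replicate 4 reached the stretch range, and the other control wells lay below it. Its log2 changes were 0.17 ± 0.07 (no block) and 0.17 ± 0.06 (block), and PTGIS did not pass (edgeR, adjusted p = 0.999 and 0.365). TBXAS1, the thromboxane synthase gene, had 2.79 ± 0.279 and 3.15 ± 0.906 CPM, and AKR1B1, an aldo-keto reductase with prostaglandin F synthase activity, 84.1 ± 4.40 and 82.8 ± 5.89 CPM. Neither passed.

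The other prostanoid receptors were nearly silent. PTGER3 and PTGFR had 0 counts in every well, and PTGDR, PTGDR2, PTGIR and TBXA2R had at most 5 counts over all 8 wells. PTGER1, the gene of EP1, had 0.873 ± 0.369 CPM in control wells and 0.808 ± 0.268 CPM in stretch wells, and did not pass. PTGFRN, a membrane protein that associates with the prostaglandin F receptor, had 231 to 293 CPM in control wells and 239 to 254 CPM in stretch wells, and did not pass.

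Of 8 tested genes of transport and breakdown, 0 were called in edgeR with or without the block at the filter used and 0 in DESeq2. In each edgeR fit 1 had an unadjusted p under 0.05, against 3.97% of all tested genes without the block and 8.89% with it. This gene, DHRS9, a short-chain dehydrogenase that acts on retinoids and other lipid alcohols, had 53.0, 56.1, 58.2 and 55.3 CPM in control wells and 65.6, 58.0, 66.5 and 71.0 CPM in stretch wells, higher in 4 of 4 pairs. Only stretch replicate 2 lay within the control range. Its log2 changes were 0.23 ± 0.07 (no block) and 0.23 ± 0.05 (block), with adjusted p-values of 0.813 and 0.0721 in edgeR. In edgeR with the block it was called without the filter (adjusted p = 0.00268), without pair 2 (0.0247) and without pair 3 (0.0432). PTGR1, which reduces the product that HPGD makes, was abundant at 832 ± 79.9 and 794 ± 114 CPM, and the exporter gene ABCC4 had 115 ± 4.90 and 108 ± 4.42 CPM. SLCO2A1, the gene of the prostaglandin uptake carrier, had 3 counts over all 8 wells.

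In the lipoxygenase and epoxygenase branch, which uses the same substrate, all 7 tested genes had log2 changes above 0, with a median of 0.20. None was called by edgeR or DESeq2, and 0 had an unadjusted p under 0.05 in either edgeR fit. Several were scarce. ALOX5, which starts leukotriene synthesis, had at most 21 counts per well, ALOX15B had 20.5 ± 3.68 and 22.9 ± 3.12 CPM, and LTA4H, which makes leukotriene B4, had 162 ± 9.38 and 167 ± 4.44 CPM.

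The relay from EP2 and EP4 through cyclic AMP was read from 22 tested genes, of which 14 had log2 changes above 0 and 8 below, with a median of 0.02. At the filter used, none was called by edgeR or DESeq2 with or without the block, and 0 had an unadjusted p under 0.05 in either edgeR fit. GNAS, the gene of the stimulatory G protein subunit, had 642 ± 17.6 and 649 ± 14.2 CPM in control and stretch wells. PDE4B, a phosphodiesterase that degrades cyclic AMP, had 187 ± 30.2 and 213 ± 21.0 CPM. It was called in edgeR with the block when no filter was applied (log2 change 0.19, adjusted p = 5.2e-04). CRTC2, a CREB coactivator, had 25.5 ± 2.26 and 23.3 ± 2.41 CPM, and the kinase anchor AKAP12 had 378 ± 16.1 and 394 ± 24.3 CPM.

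Among 25 tested genes known as regulators of PTGS2 transcription or mRNA stability, edgeR called 1 with the block and 0 without. An unadjusted p under 0.05 was reached by 5 of the 25 without the block, against 3.97% of all tested genes, and by 9 with it (6 higher and 3 lower), against 8.89%. The list was chosen with earlier results of these data known, so these shares are a description and test nothing about the list. DESeq2 called EGR1 without the block, and EGR1 and FOS with it (adjusted p of FOS 0.00159). Log2 changes were above 0 in 12 and below 0 in 13. EGR1, an immediate-early transcription factor, had 224, 251, 193 and 224 CPM in control wells and 292, 362, 283 and 260.0 CPM in stretch wells for replicates 1 to 4. Every stretch well lay above every control well, as in 1.3% of all tested genes. In the fit with the block EGR1 rose by 0.42 ± 0.05 on the log2 scale (edgeR, adjusted p = 0.00169), and 0.528% of all tested genes were called higher there. In the edgeR fit without the block it did not pass (0.42 ± 0.11, adjusted p = 0.716), while DESeq2 without the block called it (adjusted p = 0.0308). Nor did it pass when only replicates 1 and 2 were set apart from 3 and 4 as a block (edgeR, adjusted p = 0.0668), a fit that called 0.398% of all tested genes and 0 of the 7 members.

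NFATC2, a calcium-regulated factor, had 4.55, 4.60, 4.06 and 4.76 CPM in control wells and 7.07, 5.21, 6.07 and 5.77 CPM in stretch wells, also without overlap. Its adjusted p in edgeR was 0.938, or 0.215 with the block and 0.0490 with the block and no filter. USF2, named after its values were seen, was the single gene of this list with every stretch well below every control well, at 69.7 ± 2.83 and 64.8 ± 2.66 CPM. Such an order was seen in 1.24% of all tested genes, and USF2 had an adjusted p of 0.518 in edgeR with the block. ZFP36, which promotes decay of mRNAs with AU-rich elements, PTGS2 among them, had 23.3, 26.1, 30.1 and 30.0 CPM in control wells and 26.4, 36.5, 34.9 and 33.5 CPM in stretch wells. It was higher in 4 of 4 pairs, with an adjusted p in edgeR of 0.999, or 0.0782 with the block and 0.00310 with the block and no filter.

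**Figure D4:**
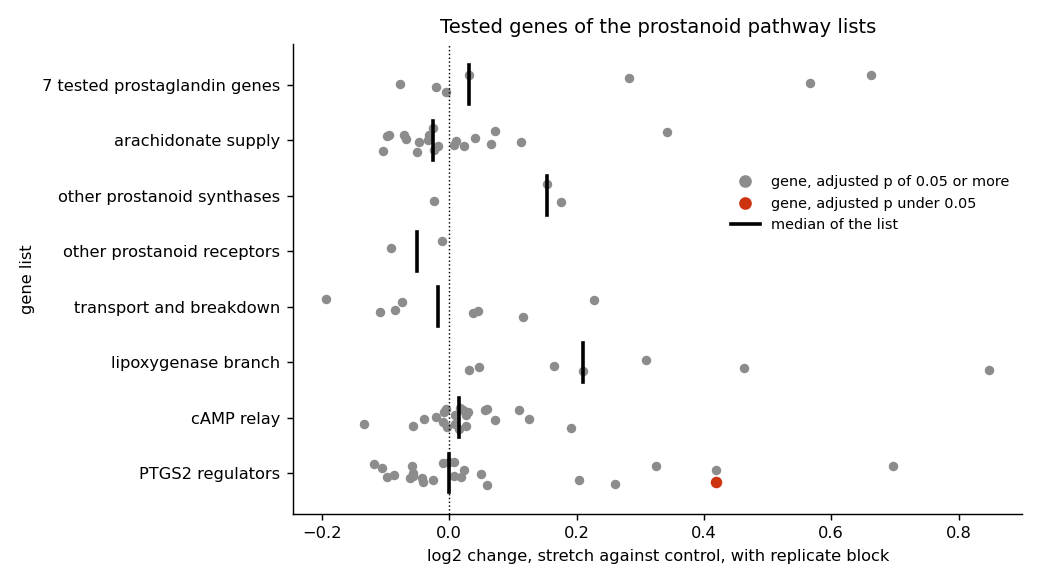
Log2 change with the replicate block for each tested gene of the prostaglandin set and of the 7 pathway lists, with a black bar at the median of each list and filled red points for genes with an adjusted p under 0.05. EGR1 at 0.42, in the list of PTGS2 regulators, is the only red point, and the cAMP relay lies between -0.13 and 0.19.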

How the data were processed

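RNA from 8 wells was sequenced as polyA-selected, stranded TruSeq libraries, per the labels' protocols. The authors deposited raw read counts per gene over exons, made with featureCounts per the table's title. The submitters' processing notes also name FastQC 0.11.8, Trim Galore 0.6.5, STAR 2.7.3a and Subread. The genome build, strand setting and handling of multi-mapping reads are not given in the sources used here, so a gene with close copies, or with an overlapping gene on the opposite strand, is uncertain. Positions are as in the table. They were identical to those of RefSeq's UU_Cfam_GSD_1.0 dog assembly for each of the 37291 genes whose symbols matched. Chromosome numbers come from that table. All 8 count columns were matched to samples by library name. No sequences were used.

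Counts were tested in R 4.3.3 with edgeR 4.0.16 (glmQLFit with robust estimation and glmQLFTest, TMM factors, filterByExpr at its defaults with a minimum count of 10 and a minimum total of 15). Two-sided p-values of the 14571 genes that remained were adjusted together by Benjamini-Hochberg, and genes with an adjusted p under 0.05 were called. The standard error of a log2 change is its size divided by the square root of the F statistic. The model held the group alone. Both groups carry replicate numbers 1 to 4, and same-numbered wells deviated together from their group means (correlations across genes from 0.111 to 0.330 in the 4 pairs), so a second fit, which adds the replicate number as a block, is given beside it. Correlations between wells of different numbers were not computed. Wells of a group differed by 5.56 to 26.8 in chi-square per degree of freedom, so none was a duplicate. The values were lowest between replicates 1 and 2 (5.56 control, 6.88 stretch) and between 3 and 4 (8.88 and 8.60). Pairing by number and a split of replicates 1 and 2 from 3 and 4 thus cannot be told apart by these correlations. The fitting code was tested on simulated data. Counts per kb divide CPM by the exon length in the table.

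Members and lists were chosen with earlier results of these data known. Named were all 9 members and, of each list, every called gene and the 3 with the smallest p with the block; the 3 genes of like pattern were taken for PTGS2 and for the other member with the smallest p; other genes are named as context. The alternatives used DESeq2 1.42.0, limma-voom (limma 3.58.1), other scalings and filters, blocks, and the omission of wells or pairs. Figures were drawn with matplotlib 3.10.9.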

Additional observations from a re-analysis of the deposited data

Results flagged for a closer look

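Of the 56 groups of 4 wells examined, for the detected members and the named list genes, 3 held a single high or low well whose gap to the next, as a share of the range, exceeded Dixon's critical value. Chance alone flags about 1 in 20 groups, or 2.8 here. None of the 9 members was among them. LPCAT3 had 66.2 CPM in stretch replicate 3, against 80.1 to 82.5 CPM in the other stretch wells. CRTC2 had 19.7 CPM in stretch replicate 2, against 24.0 to 24.8 CPM. PTGFRN had 293 CPM in control replicate 3, against 231 to 241 CPM in the other control wells.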

How the results depend on the processing

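The number of genes called over the whole table was 0 without the block, also under limma-voom, the other scalings and at least 10 counts in every well. It was 40 with DESeq2, 11 without the filter, 102 with the replicate block, and 58 when only replicates 1 and 2 were set apart from 3 and 4. With the replicate block it was 145 in DESeq2, 100 in limma-voom, 111 with library size only and 448 without the filter. The fit behind the 448 gave PTGS2 an SE of 0.042, against 0.15 with the filter, so its calls are to be read with caution. Leaving out 1 well gave 0 to 12 genes, and leaving out 1 pair with the block gave 43, 67, 186 and 74 for replicates 1 to 4. Of the members, 0 were called except for PTGS2 under 3 settings, namely DESeq2 with the replicate block, no filter with the replicate block, and the replicate block without replicate 3 (1 gene each; 0 to 1 over the omitted pairs). Of the pathway genes, 1 was called with DESeq2 and with the replicate block, 2 with DESeq2 and the block, 1 with limma-voom and the block, 1 with library size only and the block, 7 without the filter and with the block, and 1 to 3 when a pair was left out with the block. EGR1 was in each of these. FOS was the other gene called by DESeq2 with the block. Without the filter and with the block the others were DHRS9, PDE4B, NFATC2, JUN, FOS and ZFP36, and when a pair was left out they were DHRS9 and FOS (pair 2) or DHRS9 and JUN (pair 3). The cause of these differences was not tested.

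The log2 changes of PTGS2, PTGER2, PTGER4 and PLA2G4A kept their sign in all 25 alternatives, with PTGS2 between 0.55 (without control replicate 1) and 0.84 (without control replicate 3; edgeR, adjusted p = 0.117). PTGES turned to -0.11 with the replicate block and without replicate 1, and reached 0.67 with the block and without replicate 2. Over omitted wells it lay between 0.057 (without control replicate 1) and 0.53 (without control replicate 2). PTGES2 turned positive in 6 alternatives that omit wells, with 0.0069 to 0.031 over omitted wells and 8.6e-04 and 0.025 over omitted pairs, and its lowest value over omitted wells was -0.062. PTGES3 reached 0.029 without control replicate 1 and 0.024 without stretch replicate 3, and its lowest value over omitted wells was -0.057. The replicate block changed no call of a member in edgeR at the filter used. Counts of 1 to 51 per well limit what can be said of PTGES, PTGER4 and HPGD.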
